A study of Arabidopsis thaliana with 10 samples.

Results

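The 32 genes described here encode the enzymes and MYB transcription factors of glucosinolate biosynthesis in Arabidopsis thaliana. They were chosen by locus identifier from a list of pathway genes, without the CYP79B genes, and all 32 were found among the 33322 loci in the count tables. Of these, 22 had enough reads to be tested and 10 did not. By role they comprise 3 MYB regulators of the aliphatic branch (MYB28 AT5G61420, MYB29 AT5G07690, MYB76 AT5G07700) and 3 of the indole branch (MYB34 AT5G60890, MYB51 AT1G18570, MYB122 AT1G74080). Another 8 act in methionine chain elongation (BCAT4 AT3G19710, BAT5 AT4G12030, MAM1 AT5G23010, MAM3 AT5G23020, IIL1 AT4G13430, IPMI1 AT3G58990, IPMI2 AT2G43100, IMD1 AT5G14200). The core steps are represented by 8 enzymes assigned to the aliphatic branch (CYP79F1 AT1G16410, CYP79F2 AT1G16400, CYP83A1 AT4G13770, GSTF11 AT3G03190, GSTU20 AT1G78370, UGT74C1 AT2G31790, SOT17 AT1G18590, SOT18 AT1G74090), 2 shared by both branches (SUR1 AT2G20610, UGT74B1 AT1G24100) and 2 of the indole branch (CYP83B1 AT4G31500, SOT16 AT1G74100). The last 6 modify the side chain: FMO GS-OX1 AT1G65860, FMO GS-OX2 AT1G62540, FMO GS-OX3 AT1G62560, AOP2 AT4G03060 and AOP3 AT4G03050 in the aliphatic branch and CYP81F2 AT5G57220 in the indole branch.

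Glucosinolates are sulfur-rich defence compounds of the cabbage family, made from amino acids and cleaved by myrosinases when tissue is damaged. In the aliphatic branch methionine is first lengthened by a cycle of chain elongation. In the indole branch tryptophan is used directly, and CYP81F2 then oxidises the indole ring. In both branches an aldoxime is oxidised by a CYP83 enzyme, conjugated to glutathione, cleaved by the C-S lyase SUR1, glucosylated by a UGT74 enzyme and sulfated by a sulfotransferase (SOT). MYB28, MYB29 and MYB76 activate the aliphatic genes, and MYB34, MYB51 and MYB122 the indole genes.

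RNA was measured in whole seedlings of the Columbia background, 2 days old and grown in the dark. Seeds received 3 h of white light and 15 min of far-red light before 48 h of darkness at 21 °C. The PIFs are bHLH transcription factors that phytochromes remove in light and that maintain dark-type growth. The 10 genotypes were wild type (WT), the single mutants pif1, pif3, pif4 and pif5, the triple mutants pif345, pif145, pif135 and pif134, and the quadruple mutant pifq, named for mutations in PIF1, PIF3, PIF4 and PIF5. Replicates A, B and C are 3 biological samples per genotype, and the labels used here name no mutant allele. The p-values below measure the spread between these samples. The libraries were made from 20 µg of total RNA by capture of poly(A) 3′ ends, so that each mRNA gives fragments near its end whatever its length. Levels are given in CPM, the reads of a locus per 1e+06 reads counted (M), with library sizes scaled by the trimmed mean of M values (TMM).

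The libraries held 18.97 M to 70.8 M reads (median 25.2 M), so that 1 read was worth 0.0137 to 0.0574 CPM. Replicate letters shared their deviations within each of 2 sets of 15 libraries, one holding WT and the single mutants and the other the triple mutants and pifq. Set and genotype therefore cannot be told apart wherever WT is compared with a triple or quadruple mutant. WT and the libraries labelled pif134 were the one pair across the sets in which all 3 letters also shared their deviations, so that comparison is given with the replicate letter as a block too. There the block was fitted over all 30 libraries at once, although the other pairs across the sets did not share their deviations in all 3 letters. In comparisons within a set, the block was fitted within each set. In the libraries labelled pif134, PIF1 was at 58.1, 56.7 and 74.5 CPM against 22.6, 20.7 and 31.8 in WT, which goes against their label, and they are called by that label throughout. PIF3, at 4.76, 5.86 and 5.86 CPM, was low in them. PIF4 was not below WT (13.6, 11.7 and 10 CPM) under any label that names it: it had 13.6, 26.2 and 16.4 CPM in pif4, 49, 57.8 and 31.8 CPM in pifq, and 212, 149 and 79 CPM in the libraries labelled pif134. It was also above WT in pif345 and pif145. These libraries read only 3′ ends, and whether that end lies outside the mutated part of PIF4 is not given in the sources used here, so PIF4 does not check these labels. A pair of libraries stood apart from their own replicates: PIF1 was at 12.4 CPM in pif135 A against 2.28 and 2.43 in pif135 B and C, and at 14.9 CPM in pif145 C against 3.04 and 5.07 in pif145 A and B. Indole members such as MYB51 were raised in both libraries too, and the setting without both was chosen for that. Calls between 2 genotypes that rest on them are given with and without them, while the joint test of the triple mutants and pifq is not given without both.

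The promoters of 4 members are shown first, because these genes rose in both pifq and the libraries labelled pif134 and each promoter holds a motif match. MYB122 and CYP83B1 were called higher in both as well, and their promoters held no match to any motif searched. Each is the 250 bases before the annotated gene start, 5′ to 3′ on the gene's own strand, read from the RefSeq assembly TAIR10.1. Capitals mark matches, on either strand, to the PBE-box CACATG, a variant of the G-box that PIFs bind, and to the W-box core TTGAC, which WRKY factors bind. The regions are chr1:6389149-6389398 (plus strand) for MYB51, chr1:6398281-6398530 (plus strand) for SOT17, chr5:23187590-23187839 (plus strand) for CYP81F2 and chr1:24502777-24503026 (minus strand) for FMO GS-OX1.
MYB51: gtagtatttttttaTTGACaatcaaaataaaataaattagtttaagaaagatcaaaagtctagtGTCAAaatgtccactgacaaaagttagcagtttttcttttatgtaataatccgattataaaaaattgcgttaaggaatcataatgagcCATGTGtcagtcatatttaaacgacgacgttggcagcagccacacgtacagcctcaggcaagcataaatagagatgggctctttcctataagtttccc
SOT17: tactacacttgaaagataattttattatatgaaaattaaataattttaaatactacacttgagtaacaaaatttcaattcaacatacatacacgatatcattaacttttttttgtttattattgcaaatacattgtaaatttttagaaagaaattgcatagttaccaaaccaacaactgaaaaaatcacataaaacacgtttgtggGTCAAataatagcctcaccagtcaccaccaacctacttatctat
CYP81F2: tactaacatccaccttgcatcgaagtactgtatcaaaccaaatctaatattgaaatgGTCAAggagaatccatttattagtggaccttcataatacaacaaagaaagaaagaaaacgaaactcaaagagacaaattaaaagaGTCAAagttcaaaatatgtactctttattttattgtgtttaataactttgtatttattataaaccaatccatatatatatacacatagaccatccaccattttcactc
FMO GS-OX1: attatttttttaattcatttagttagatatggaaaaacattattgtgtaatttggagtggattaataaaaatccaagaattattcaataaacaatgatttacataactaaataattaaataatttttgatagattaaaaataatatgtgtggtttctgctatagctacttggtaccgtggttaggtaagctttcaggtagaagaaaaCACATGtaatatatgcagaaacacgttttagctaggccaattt

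The MYB51 promoter held 1 PBE-box, 98 bases before the gene start, and 2 W-box cores, at 236 and 186 bases. The FMO GS-OX1 promoter held 1 PBE-box at 43 bases. The SOT17 promoter held 1 W-box core at 44 bases, and that of CYP81F2 held 2, at 193 and 108 bases. None of these matches overlapped another. Over all 32 members, the G-box CACGTG was found in 3 promoters (IIL1, CYP83A1 and SUR1), against 6.49% of 27443 promoters of the same length. The PBE-box was found in 3 (MYB51, FMO GS-OX1 and AOP2), against 11.1%, and the W-box core in 11, against 44.9%. A match is only a run of letters in this window and says nothing about binding in these seedlings.

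In dark-grown seedlings the pathway was expressed unevenly. The indole genes, the shared core genes and IIL1 were read in every library. So were GSTU20, SOT17 and SOT18 of the aliphatic branch, and some low aliphatic genes such as MAM3. Most aliphatic genes were near the limit of detection. SOT16, the indole sulfotransferase, had 144, 173 and 191 CPM in WT, and CYP83B1, the indole aldoxime oxidase, had 120, 56.7 and 83.3 CPM. MYB29 and MYB76 had no read in any of the 30 libraries, which allows at most 0.00364 CPM over all libraries (3 counts, counting error only). The other 8 untested members had from 1 read (AOP2, annotated as a transcribed pseudogene in this reference) to 59 reads (AOP3) over all libraries. MAM1, which builds the elongated chain, had 24 reads, CYP79F1 had 9 and GSTF11 had 7. IPMI2 had 50, FMO GS-OX2 had 45 and FMO GS-OX3 had 6. AOP3 had 16 reads in WT and none in pif1 and pif145. Among the 22 tested members, 7 never reached 60 reads in a library, and their fold changes rest on few reads.

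**Figure D1:**
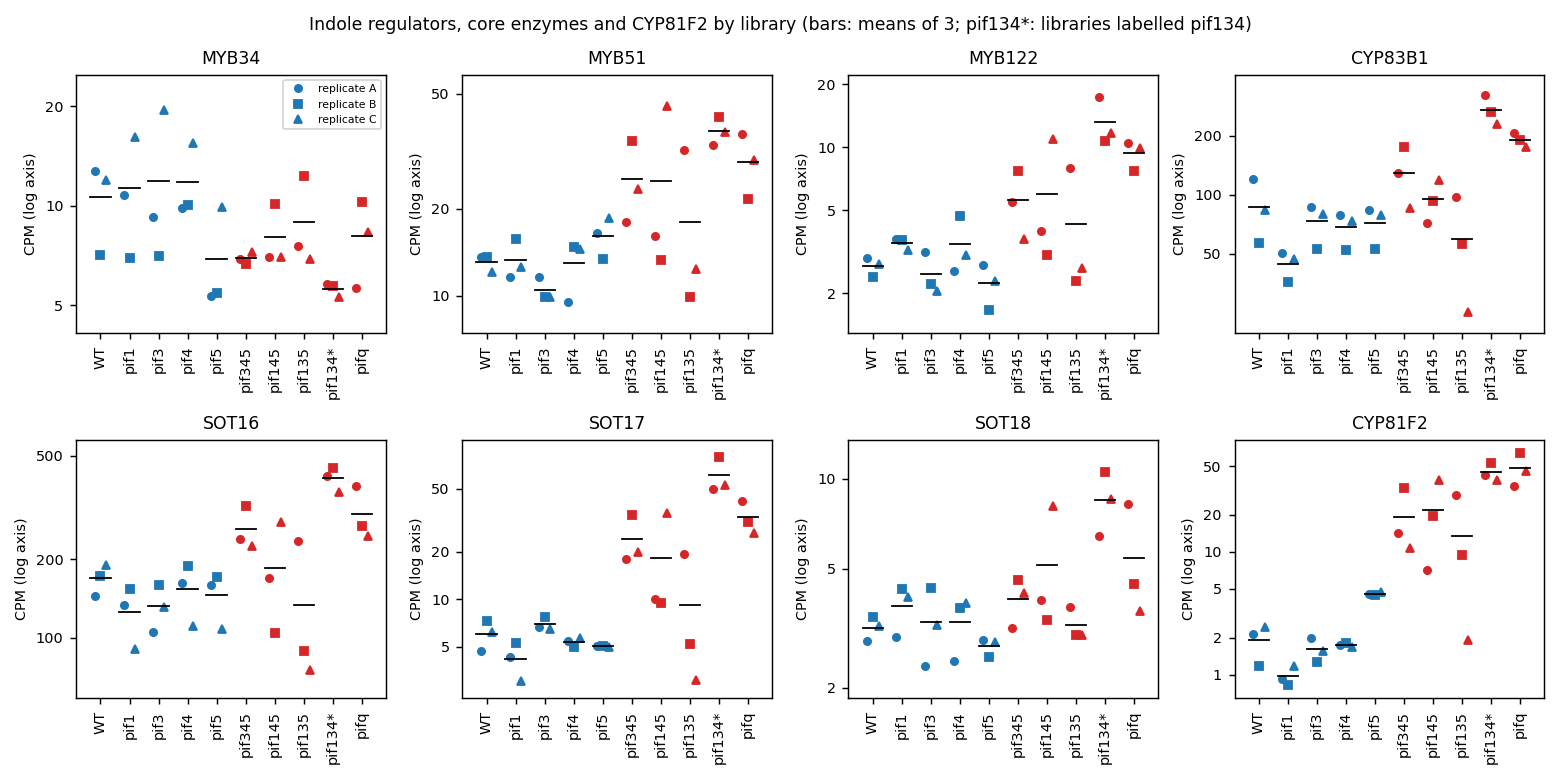
Levels of 8 members in each library, in CPM on a log axis, by genotype. Symbols are replicates A, B and C, black bars are means of 3, blue marks WT and the single mutants and red the triple mutants and pifq; MYB51, MYB122, CYP83B1, SOT16, SOT17, SOT18 and CYP81F2 were above every WT library in all libraries of pifq and of the libraries labelled pif134, while MYB34 was not.

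Among the indole regulators, MYB51 and MYB122 rose in pifq and in the libraries labelled pif134, and MYB34 was not called higher in either. MYB51 had 13.6, 13.6 and 12.1 CPM in WT, 36.1, 21.7 and 29.5 CPM in pifq and 33.3, 41.5 and 36.8 CPM in the libraries labelled pif134. No pifq or pif134-labelled library overlapped WT. By the quasi-likelihood test of edgeR, with p adjusted over 18680 loci after Benjamini and Hochberg, MYB51 rose in pifq by a log2 fold change of 1.15 ± 0.38 (SE; adjusted p = 0.0373). In the libraries labelled pif134 the log2 fold change was 1.5 ± 0.38 (adjusted p = 0.00561). The pifq call was lost when WT A, WT B, WT C, pifq A or pifq C was left out, with adjusted p up to 0.126.

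MYB122 had 2.96, 2.40 and 2.76 CPM in WT, 10.4, 7.69 and 9.89 CPM in pifq, and 17.4, 10.7 and 11.7 CPM in the libraries labelled pif134. The groups did not overlap. The log2 fold change was 1.79 ± 0.43 in pifq (adjusted p = 0.00418) and 2.30 ± 0.43 in the libraries labelled pif134 (adjusted p = 0.000299), both by edgeR's quasi-likelihood test, and both calls held under every alternative tried. MYB34 had 12.7, 7.11 and 12 CPM in WT, 5.62, 10.2 and 8.35 CPM in pifq and 5.79, 5.71 and 5.28 CPM in the libraries labelled pif134. Its pifq values overlapped WT, and the pif134-labelled values lay below all of WT, with a log2 fold change of -0.92 ± 0.36 that missed the threshold (adjusted p = 0.0789) and passed it with the replicate block (-0.90, adjusted p = 0.0464). In pif345 MYB51 was at 18.0, 34.3 and 23.4 CPM, all above WT, but its log2 fold change of 0.95 ± 0.38 missed the threshold too (adjusted p = 0.167).

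CYP81F2, the cytochrome P450 that hydroxylates the ring of indole glucosinolates, was called higher than WT in all 5 of the multiple mutants. It had 2.14, 1.18 and 2.43 CPM in WT. In pifq it had 34.7, 63.8 and 45.6 CPM, and in the libraries labelled pif134 42.3, 52.8 and 38.4 CPM. Both groups were far above every WT library, with log2 fold changes of 4.66 ± 0.65 (adjusted p = 1.13e-05) and 4.55 ± 0.65 (adjusted p = 1.01e-05) by edgeR's quasi-likelihood test.

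In the other triple mutants CYP81F2 varied more between replicates. It had 14.2, 33.3 and 10.8 CPM in pif345, 7.11, 19.6 and 38.7 CPM in pif145, and 29.2, 9.36 and 1.90 CPM in pif135. Every pif345 and pif145 library was above WT, whereas pif135 C lay within the WT range. The log2 fold changes were 3.35 ± 0.62 in pif345 (adjusted p = 0.00187), 3.52 ± 0.62 in pif145 (adjusted p = 0.0004) and 2.83 ± 0.61 in pif135 (adjusted p = 0.0024), by edgeR's quasi-likelihood test. Without pif135 A the value in pif135 was 1.58 (adjusted p = 0.0551), and the call was lost. The pif145 call held under every alternative tried, those without pif145 C included, and the lowest log2 fold change was 2.81. In pif5, CYP81F2 was at 4.54, 4.44 and 4.73 CPM, above all 3 WT libraries, and its log2 fold change of 1.27 ± 0.59 missed the threshold (adjusted p = 0.363).

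Among the sulfotransferases and CYP83B1, each had its highest mean in the libraries labelled pif134. SOT17 is assigned to the aliphatic branch because it prefers methionine-derived substrates in vitro. It had 4.68, 7.26 and 6.18 CPM in WT, 41.9, 31.0 and 26.2 CPM in pifq and 50, 79.8 and 52.9 CPM in the libraries labelled pif134. The groups did not overlap, and SOT17 rose by log2 fold changes of 2.45 ± 0.48 (adjusted p = 0.000662) and 3.33 ± 0.50 (adjusted p = 1.92e-05), by edgeR's quasi-likelihood test. In pif345 it had 17.9, 34.1 and 19.9 CPM and rose by 1.98 ± 0.47 (adjusted p = 0.0146 by the same edgeR test), which missed the threshold once WT A, WT C or pif345 B was left out. In pif145 it had 10.1, 9.52 and 35.3 CPM with a log2 fold change of 1.59 ± 0.47 (adjusted p = 0.0253 by the same edgeR test). Without pif145 C that value was 0.69 (adjusted p = 0.42), and the call was also lost without WT A or WT C and with only these genotypes in the fit. In pif135 SOT17 had 19.2, 5.25 and 3.08 CPM and was not called.

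CYP83B1 had 208, 191 and 176 CPM in pifq and 322, 265 and 230 CPM in the libraries labelled pif134, all above the highest WT library. It rose by 1.15 ± 0.35 (adjusted p = 0.0259) and 1.65 ± 0.36 (adjusted p = 0.00133), by edgeR's quasi-likelihood test. The pifq call was lost without WT B, WT C, pifq A or pifq B. SOT16 had 384, 267 and 246 CPM in pifq and 416, 449 and 362 CPM in the libraries labelled pif134, again all above WT. It rose in the libraries labelled pif134 by 1.27 ± 0.36 (adjusted p = 0.0126 by the same edgeR test, and 0.0587 without WT A). In pifq its log2 fold change of 0.82 ± 0.35 missed the threshold (adjusted p = 0.117). SOT18, the other sulfotransferase assigned to the aliphatic branch, had 2.87, 3.45 and 3.22 CPM in WT and 6.43, 10.6 and 8.56 CPM in the libraries labelled pif134. There it rose by 1.42 ± 0.32 (adjusted p = 0.00225 by edgeR's quasi-likelihood test). In pifq it had 8.23, 4.44 and 3.62 CPM, all above WT, and was not called (0.77 ± 0.32, adjusted p = 0.105).

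The core enzymes shared by both branches were called in neither pifq nor the libraries labelled pif134 with all libraries in the fit and no block. SUR1 had 12.2, 13.6 and 14.5 CPM in WT, 24.2, 18.4 and 23.3 CPM in pifq and 19.1, 26.4 and 25.7 CPM in the libraries labelled pif134. These groups did not overlap WT, yet the log2 fold changes of 0.71 ± 0.30 and 0.83 ± 0.30 missed the threshold (adjusted p = 0.104 and 0.0545 by edgeR's quasi-likelihood test). With the replicate block SUR1 was called in the libraries labelled pif134 (0.82, adjusted p = 0.0116 by the same test). UGT74B1 had 35.8, 55.9 and 57.1 CPM in WT and 109, 97.9 and 109 CPM in pif345. Its pif345 log2 fold change was 1.09 ± 0.41 (adjusted p = 0.146 by the same edgeR test), and it was called in no comparison with WT with all libraries in the fit and no block. With the replicate block it was called in the libraries labelled pif134 (1.09, adjusted p = 0.0447), where it had 107, 88.9 and 125 CPM.

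Several of these genes are neighbours on chromosome 1 (TAIR10.1). MYB51 (6389399 to 6391386) and SOT17 (6398531 to 6400029) lie 7144 bases apart, with 1 annotated gene between them. MYB122 (27855578 to 27857598) is followed after 5215 bases by SOT18 (27862814 to 27864193). The 3′ end of SOT16 (27864345 to 27865694, minus strand) lies 151 bases beyond SOT18. SOT18 and SOT16 run towards each other, and whether the counting used the strand is not given in the sources used here. Over the last 300 transcript bases, where these libraries read, SOT16 and SOT18 were 67.1% identical with a longest shared run of 17 bases, and SOT16 and SOT17 were 49.1% identical with a longest run of 11. How the counting treated reads with several hits is not given either. CYP83B1 (chromosome 4, 15273410 to 15275404) and CYP81F2 (chromosome 5, 23187840 to 23189902) lie elsewhere.

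**Figure D2:**
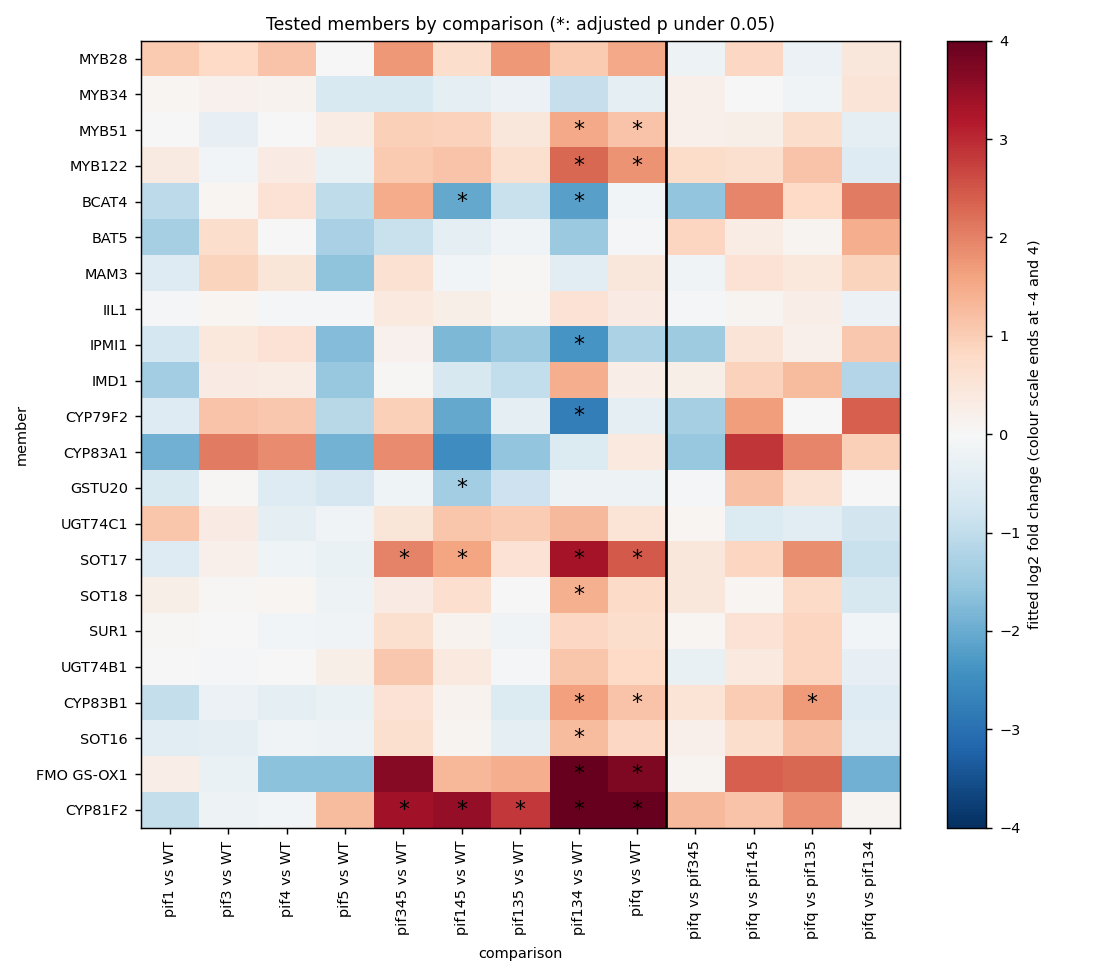
Fitted log2 fold changes of the 22 tested members (rows) in 13 comparisons (columns), from blue (lower in the first-named genotype) to red (higher); the colour scale ends at -4 and 4. Asterisks mark adjusted p under 0.05; they gather in the columns of pifq and of the libraries labelled pif134 against WT and in the rows of SOT17 and CYP81F2.

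Most aliphatic genes were too low for firm comparisons, and the sum of 10 chain elongation and core aliphatic genes that never reached 1.5 CPM shows their level as a whole. These are BCAT4, BAT5, MAM1, MAM3, IPMI1, IPMI2, CYP79F1, CYP79F2, CYP83A1 and GSTF11. Their summed level was 2.1 ± 0.375 CPM in WT and 1.97 ± 0.458 CPM in pifq (mean ± SD, n = 3). It was 0.81 ± 0.1 CPM in the libraries labelled pif134, 0.845 ± 0.0933 CPM in pif5, 1.08 ± 0.57 CPM in pif145, 1.21 ± 0.173 CPM in pif1 and 1.47 ± 0.537 CPM in pif135. The highest values were 3.63 ± 0.525 CPM in pif3, 3.44 ± 0.769 CPM in pif345 and 3.31 ± 1.82 CPM in pif4, the last with a wide spread. These sums were not tested.

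**Figure D3:**
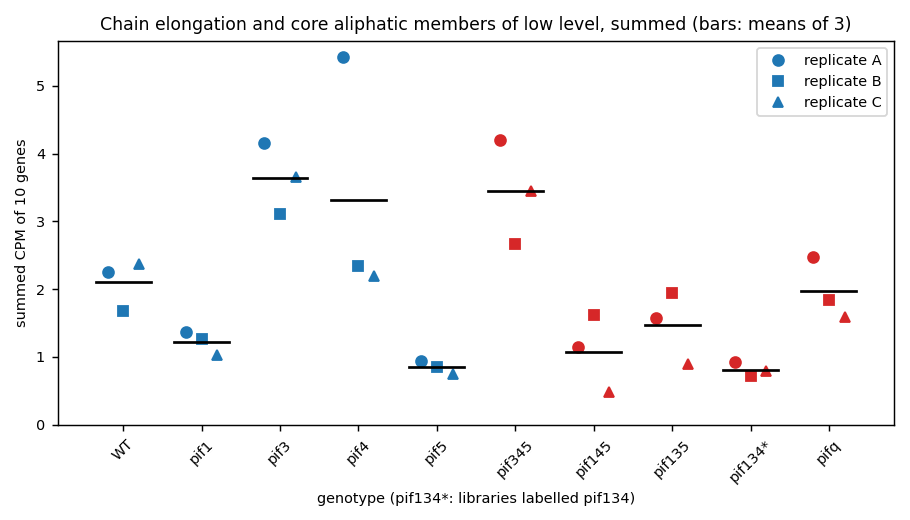
Summed CPM of 10 low chain elongation and core aliphatic genes in each library, by genotype. Symbols are replicates A, B and C, black bars are means of 3, blue marks WT and the single mutants and red the triple mutants and pifq; all libraries of pif1, pif5, pif145 and those labelled pif134 lie below every WT library, and all of pif3 and pif345 above.

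Among single aliphatic genes, 3 fell in the libraries labelled pif134, each on very few reads. BCAT4, which starts chain elongation by transaminating methionine, had 4 reads in all there against 32 in WT, with a log2 fold change of -2.18 ± 0.72 (adjusted p = 0.0353 by edgeR's quasi-likelihood test). IPMI1, a small subunit of isopropylmalate isomerase, had 4 reads against 40 (-2.37 ± 0.82, adjusted p = 0.0465 by the same edgeR test), and CYP79F2 had 2 reads against 28 (-2.77 ± 0.96, adjusted p = 0.0446). Scaled for library size, the levels in WT were higher by ratios of 4.51 for BCAT4 (95% exact interval of counting error 1.60 to 17.5), 5.64 for IPMI1 (2.04 to 21.7) and 7.89 for CYP79F2 (1.99 to 68.3). These calls were lost in 7, 9 and 8 of 13 alternatives. BCAT4 also fell in pif145, with 5 reads (-2.05 ± 0.69, adjusted p = 0.0495), a call lost in 8 of 14 alternatives, among them those without pif145 A or pif145 C.

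FMO GS-OX1, a flavin monooxygenase that oxidises the side-chain sulfur of aliphatic glucosinolates, rose from 1 read in WT to 12 reads in pifq and 40 in the libraries labelled pif134. Its levels were 0.86, 0.48 and 0.792 CPM in the libraries labelled pif134 and 0.354, 0.142 and 0.0482 CPM in pifq, against 0, 0.0214 and 0 CPM in WT. The ratio to WT was 71 in the libraries labelled pif134 (95% exact interval of counting error 12 to 2873; adjusted p = 0.000174 by edgeR's quasi-likelihood test) and 18.9 in pifq (2.79 to 807; adjusted p = 0.0259 by the same test). The pifq call was lost in 6 of 13 alternatives, among them those without WT A, WT C or pifq A. In pif345 it had 14 reads and was not called (adjusted p = 0.0673). FMO GS-OX1 passed the read filter only through the libraries labelled pif134, with 15, 10 and 15 reads. The next highest library, pifq A, had 8. That it was tested at all thus depended on the group in which it is called high. The call in that group was kept when no filter was used. MYB28, the only aliphatic regulator with reads, lay between 0.0423 and 0.82 CPM over all libraries, with at most 30 reads in a library. It was called in no comparison of 2 genotypes with all libraries in the fit and no block. Its largest log2 fold changes against WT were 1.73 in pif135 (adjusted p = 0.0531), 1.73 in pif345 (adjusted p = 0.106) and 1.51 in pifq (adjusted p = 0.0941), by edgeR's quasi-likelihood test.

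GSTU20, a glutathione transferase of the aliphatic core, was the well-read aliphatic member that fell. It had 60.7, 68.0 and 84.1 CPM in WT and 29.8, 24.0 and 27.3 CPM in pif145. The groups did not overlap, and the log2 fold change of -1.39 ± 0.30 (adjusted p = 0.00286 by edgeR's quasi-likelihood test) held under every alternative tried. In pifq it had 79.4, 43.2 and 60.2 CPM and overlapped WT. IIL1, the large isomerase subunit that also serves leucine synthesis, ranged from 93.0 to 266 CPM and was called in no comparison with all libraries in the fit and no block. With the replicate block it was called higher in the libraries labelled pif134 (0.57, adjusted p = 0.0486 by the same edgeR test).

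Counted over the 22 tested members, 6 were higher and 0 lower in pifq than in WT, where 8.01% of all tested loci were higher and 7.17% lower. In the libraries labelled pif134, 8 members were higher and 3 lower, against 9.12% and 7.79% of all loci. With the replicate block these counts were 13 and 4, against 12.6% and 12.6% of all loci, and besides the genes given above IMD1 (1.44, adjusted p = 0.0295) and UGT74C1 (adjusted p = 0.029) were called higher by the same edgeR test. In pif345, 2 were higher and 0 lower (2.42% and 1.48% of all loci); in pif145, 2 were higher and 2 lower (6.53% and 5.52%); and in pif135, 1 was higher and 0 lower (6.79% and 5.77%). The median log2 fold change of the tested members was 0.63 in pifq, 1.08 in the libraries labelled pif134, 0.63 in pif345, 0.13 in pif145 and -0.10 in pif135. The medians of all tested loci lay between -0.02 and 0.03. All these comparisons share the same 3 WT libraries. FMO GS-OX1, tested only through its level in the libraries labelled pif134, is among the members counted as higher there and in pifq.

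No tested member passed the threshold in a single mutant against WT, where 3.76% of all loci were called in pif1, 0.112% in pif3, 0.0589% in pif4 and 0.128% in pif5. At an unadjusted p under 0.05, edgeR's quasi-likelihood test gave 4 members in pif1, 1 in pif3, 1 in pif4 and 5 in pif5, and DESeq2 called 0 in each. Of all 18680 loci tested, 3674 in pif1, 767 in pif3, 676 in pif4 and 2385 in pif5 passed the same unadjusted threshold. The replicate letters pair the libraries within this set, and with the replicate block 3 members were called in pif1 and 1 in pif5, where 19.6% and 7.29% of all loci were. CYP83B1 was at 50.4, 35.8 and 47.0 CPM in pif1, all below WT, and its blocked log2 fold change was -0.92 (adjusted p = 0.021 by edgeR's quasi-likelihood test). GSTU20 was lower with the block in pif1 (-0.62, adjusted p = 0.0392) and in pif5 (-0.69, adjusted p = 0.0459). UGT74C1, the glucosyltransferase assigned to the aliphatic branch, was higher in pif1 (0.97, adjusted p = 0.0449), with 0.777, 0.897 and 2.70 CPM against 0.534, 0.642 and 0.821 in WT. Over WT and the single mutants together, a joint F test found 1 of 22 members to vary, CYP83A1, an aldoxime oxidase of the aliphatic branch (adjusted p = 0.00554), against 4.48% of all loci. It had 64 reads in pif3, 29 in pif4 and 11 in WT, and 2 each in pif1 and pif5. These reads are not scaled for depth: 40 of the 64 came from pif3 A, the deepest library (70.8 M). No library had more than 40, so this call rests on few reads. With the block 7 members varied, against 23.5% of all loci.

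Among the triple mutants and pifq, which belong to the same set of libraries, the joint F test called 11 of 22 tested members, against 8.73% of all loci, and 14 with the replicate block, against 25.7%. With only these genotypes in the fit it called 3, against 4.83% of all loci, namely BCAT4, CYP83B1 and FMO GS-OX1. With all libraries in the fit and no block, the smallest adjusted p-values were 0.000232 for BCAT4, 0.000605 for CYP83B1, 0.00212 for SOT17 and 0.00342 for FMO GS-OX1. BCAT4 had 1.22, 0.785 and 0.783 CPM in pif345 against 0.0574, 0.096 and 0.0528 CPM in the libraries labelled pif134. CYP83B1, SOT16, SOT17, SOT18, MYB122 and FMO GS-OX1 each had their highest mean in the libraries labelled pif134. FMO GS-OX1 passed the read filter only through those libraries, so its call in the joint test is not independent of them. IMD1, the isopropylmalate dehydrogenase of chain elongation, also varied (adjusted p = 0.012), from 0.243 CPM in pif135 C to 4.25 CPM in pif134-labelled A.

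Set against each triple mutant, pifq gave few calls. With all libraries, 1 member was higher in pifq than in pif135 (0.187% of all loci), and none was called against pif345, pif145 or the libraries labelled pif134, where 2.75%, 0.551% and 1.35% of all loci were. DESeq2 called 0, 1 and 0 members. Unadjusted p under 0.05 was reached by 2, 6 and 4 members and by 2548, 1515 and 1543 of all 18680 loci. The called member was CYP83B1, with 97.6, 55.7 and 25.2 CPM in pif135, all below pifq (1.69 ± 0.36, adjusted p = 0.0243 by edgeR's quasi-likelihood test); it was lost without pif135 B, pif135 C or pifq A, and with only these genotypes in the fit. With the replicate block SOT17 (1.91, adjusted p = 0.0245), SUR1 (0.84, adjusted p = 0.0336) and SOT16 (1.23, adjusted p = 0.0284) were also higher than in pif135, making 4 where 2.43% of all loci were higher. The block also made BCAT4 lower than in pif345 (-1.60, adjusted p = 0.0229, against 10.4% of all loci) and GSTU20 higher than in pif145 (1.13, adjusted p = 0.00421, against 2.11%).

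In pif135 and pif145 many members were highest in 1 of the 3 libraries. Of the 22 tested members, 16 were highest in pif135 A and 13 in pif145 C, beside 12 in pifq A and 11 in pif4 A among their own replicates. The same count was not made over all tested loci, so it does not set these members apart from other genes. Over all tested loci, the mean squared log2 deviation from the genotype mean was 0.177 in pif135 A against 0.157 and 0.126 in B and C, and 0.281 in pif145 C against 0.176 and 0.222 in A and B. MYB51 was at 31.8 CPM in pif135 A against 9.91 and 12.4 CPM in pif135 B and C, and at 45.4 CPM in pif145 C against 16.1 and 13.3 CPM in pif145 A and B. AOX1D, an alternative oxidase gene induced by stress and chosen here after its values were seen, was at 73.7 CPM in pif135 A against 2.47 and 0.769 CPM in B and C. It was at 108 CPM in pif145 C against 16.4 and 14.3 CPM in A and B, and at 0.0329 to 0.0821 CPM in WT, 70.6 to 86.5 CPM in pifq and 101 to 202 CPM in the libraries labelled pif134. The part of this in the members' levels was not tested.

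The libraries pif135 A and pif145 C were singled out as those with raised indole members. Leaving them out therefore lowers such members in pif135 and pif145 by construction. The calls in this setting are no separate test of the members, and the shares of all loci are no like measure for them. With pif135 A and pif145 C both left out, a setting chosen after the data were seen, 9 of the 22 members were higher in pifq than in pif135, where 2.33% of all loci were. They were the indole and sulfation genes named above with CYP83B1: MYB51 (1.39, adjusted p = 0.00304), MYB122 (1.93, adjusted p = 0.000733), SOT16 (1.87, adjusted p = 0.00044), SOT17 (2.98, adjusted p = 2.71e-06) and CYP81F2 (3.07, adjusted p = 0.000606), and also SUR1, UGT74B1 and IMD1. Against pif145, MYB122 (1.42, adjusted p = 0.0269) and SOT17 (1.76, adjusted p = 0.00304) were higher in pifq, where 0.842% of all loci were. These are edgeR's quasi-likelihood tests on 2 remaining libraries of pif135 and of pif145. In the same setting SOT17 was no longer called in pif145 against WT (0.69, adjusted p = 0.205), and CYP83B1 (-1.10, adjusted p = 0.0434), SOT16 (-1.05, adjusted p = 0.0254) and IMD1 (-1.80, adjusted p = 0.0217) became lower in pif135 than in WT.

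**Figure D4:**
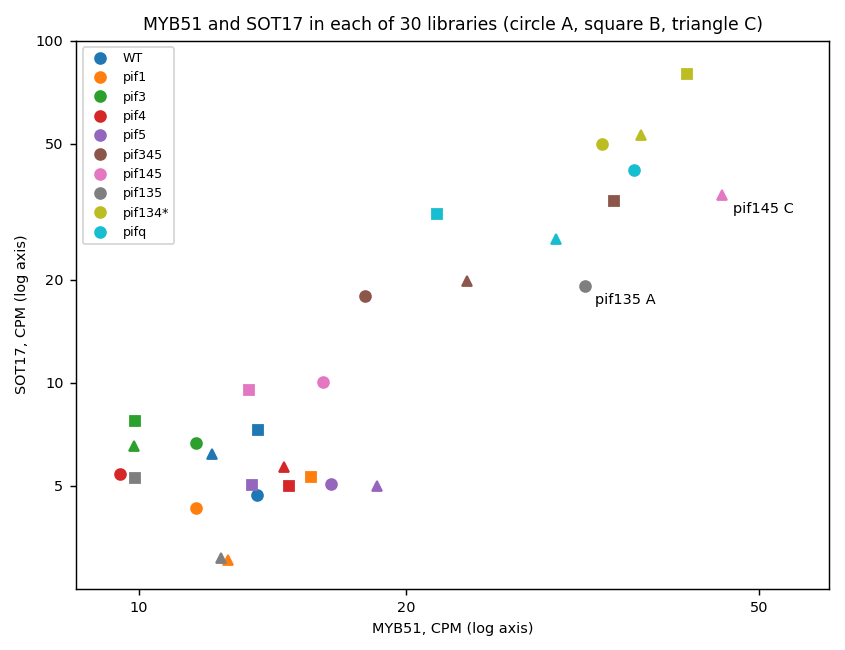
SOT17 against MYB51 in each of the 30 libraries, both in CPM on log axes, with genotypes by colour and replicates by symbol. The libraries labelled pif134 lie at the top right, WT and the single mutants at the bottom left, and pif135 A (31.8 and 19.2 CPM) and pif145 C (45.4 and 35.3 CPM) apart from their own replicates.

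Between replicates of the same genotype, the likeness of other members to MYB51 was smaller for most of them without pif135 A and pif145 C. Over 15 libraries of the triple mutants and pifq, after each genotype's mean was removed, Pearson's r of log2 CPM with MYB51 was 0.906 for SOT17, 0.893 for SOT16, 0.879 for MYB122 and 0.873 for SUR1. Without those 2 libraries (13 left) it was 0.557, 0.597, 0.439 and 0.717. With all 15 it was 0.842 for UGT74B1, 0.75 for SOT18, 0.615 for CYP81F2, 0.576 for CYP83B1 and -0.554 for MYB34, and with 13 it was 0.465, 0.669, -0.09, 0.01 and -0.628. Members of the aliphatic branch ranged widely over all 15, from 0.825 for IMD1, 0.661 for FMO GS-OX1 and 0.391 for MYB28, through 0.188 for CYP79F2, 0.172 for GSTU20, -0.03 for UGT74C1 and -0.122 for CYP83A1, to -0.435 for MAM3. In the 15 libraries of WT and the single mutants, the same measure was 0.125 for SOT17, -0.289 for SOT16 and 0.646 for MYB122. These correlations are descriptions without a test, and libraries that share a replicate letter are not independent.

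The rest of the pathway moved unevenly too. Of 17 further pathway genes, 16 were tested, and 4 were higher and 2 lower in pifq, where 8.01% and 7.17% of all tested loci were. In the libraries labelled pif134, 4 were higher and 3 lower, where 9.12% and 7.79% of all loci were. Methyltransferases of indole glucosinolates were called in both directions. IGMT2 rose from 24.9, 16.9 and 12.8 CPM in WT to 164, 192 and 163 CPM in pifq (3.25 ± 0.39, adjusted p = 1.39e-06 by edgeR's quasi-likelihood test). IGMT1 rose from 32.1, 31.7 and 19.6 CPM to 162, 181 and 170 CPM (2.62 ± 0.39, adjusted p = 2.59e-05). GGP1, the peptidase that trims the glutathione conjugate, rose by 1.68 ± 0.38 (adjusted p = 0.0025). All pifq libraries of IGMT1 and IGMT2 were above WT. IGMT5, another methyltransferase of the list, named here after its values were seen, fell from 30.6, 36.9 and 37.9 CPM in WT to 18.8, 16.8 and 21 CPM in pifq (-0.90 ± 0.23, adjusted p = 0.00736 by the same edgeR test).

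Of 12 genes of sulfate assimilation, which supplies the sulfur and the sulfate donor of the SOT enzymes, 5 were higher and 1 lower in pifq (8.01% and 7.17% of all loci), and 8 higher and 1 lower in the libraries labelled pif134 (9.12% and 7.79%). APR1, an adenosine phosphosulfate reductase, rose from 3.08, 3.34 and 3.91 CPM to 18.7, 15.4 and 16.0 CPM in pifq (2.28 ± 0.43, adjusted p = 0.000487 by edgeR's quasi-likelihood test). APK2, a kinase that makes the sulfate donor, rose from 8.83, 9.78 and 9.92 CPM to 35.5, 34.0 and 26.7 CPM (1.75 ± 0.38, adjusted p = 0.002). The sulfate transporter gene SULTR1;1 fell by 2.15 on the log2 scale (SE 0.67, adjusted p = 0.0293). None of 6 tested sulfur starvation genes was called in pifq (15.2% of all loci), and 1 was lower in the libraries labelled pif134 (7.79%). In pifq, 2 of them had an unadjusted p under 0.05, SDI1 (-1.34 ± 0.60, adjusted p = 0.134) and LSU2 (1.07 ± 0.48, adjusted p = 0.137), by edgeR's quasi-likelihood test.

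Among the regulators upstream of the MYBs, MYC2 fell and none was called higher. MYC2, a bHLH factor of jasmonate signalling that acts with the MYBs on glucosinolate genes, had 105, 97.0 and 102 CPM in WT and 46.8, 47.7 and 36.9 CPM in pifq. It fell by 1.21 on the log2 scale (SE 0.18, adjusted p = 1.91e-05 by edgeR's quasi-likelihood test) and by 0.90 (SE 0.17, adjusted p = 0.000465) in the libraries labelled pif134. Of 5 such regulators, 0 were higher in either, where 8.01% (pifq) and 9.12% (libraries labelled pif134) of all loci were. Of 10 tested jasmonate response genes, 4 were lower and 0 higher in pifq (7.17% and 8.01% of all loci), among them JAZ8 (-3.67 ± 1.04, adjusted p = 0.0154), VSP1 (-2.29 ± 0.49, adjusted p = 0.00174) and JAZ7 (-2.16 ± 0.33, adjusted p = 4.39e-05). In the libraries labelled pif134, 2 were higher and 2 lower (9.12% and 7.79% of all loci).

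The summed RNA of marker genes of several tissues also differed between genotypes. Summed root hair markers were at 25.8 to 46.2 CPM in WT, 1.86 to 11.1 CPM in pifq and 0.581 to 2.18 CPM in the libraries labelled pif134, and 5 and 6 of the 6 genes were lower, against 7.17% and 7.79% of all loci. Summed leaf photosynthesis genes rose from 2471 to 5473 CPM in WT to 21040 to 34703 CPM in pifq, and all 5 were higher in pifq and in the libraries labelled pif134, against 8.01% and 9.12% of all loci. Summed seed storage genes were at 2534 to 4669 CPM in WT and 155 to 767 CPM in pifq, and 7 of 10 were lower in both, against 7.17% and 7.79%. The root markers SCR, SHR and PLT1 summed to 37.9 to 44.6 CPM in WT and 32 to 51 CPM in pifq, and 0 of 3 were called. Of 6 reference genes, 0 were called. In whole seedlings, fewer cells of a type and less RNA per cell cannot be told apart, and the part of these shifts in the members' levels was not tested.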

How the data were processed

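The authors deposited raw counts of reads for every locus, with a column for each of 3 biological replicates per genotype. Per the submitters' processing notes, Bowtie 0.12.7, TAIR10 and edgeR (no version or role) were used; the counting tool is not given in the sources used here. Per the labels' protocols, libraries were directional and had technical duplicate runs, which the deposited counts do not show apart. An unnamed last value in each column (at most 0.0015% of the total) was left out. It was not whole in WT B, pif3 B and pif5 C, so the deposited values of those columns were classed as estimated counts; their named values were all whole and were not rounded.

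One edgeR 4.0.16 model (R 4.3.3) held the counts of all 30 libraries: loci kept by filterByExpr (minimum count 10), TMM scaling (factors 0.779 to 1.20), genotype as the only term, glmQLFTest, and Benjamini-Hochberg adjustment over the 18680 loci tested within each comparison. A call is an adjusted p under 0.05. Standard errors were taken as the absolute log2 fold change divided by the root of F. The script was tested on simulated data. The members, the gene lists and the 2 sets of libraries were chosen with earlier results of these data known. All 32 members may be named; from each further list, the 3 called genes with the largest change in pifq were named, or the 2 with the smallest p where none was called.

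Same-letter libraries of different genotypes were compared by the correlation of their deviations from genotype means. All 3 letters correlated over 0.1 in 19 of 20 pairs of genotypes within a set and in 1 of 25 across sets. The pair across sets was WT with the libraries labelled pif134. The letters were therefore taken to pair libraries within a set and in that comparison, from the data and not the labels. Alternatives were total-count and RLE scaling, no filter, replicate blocks, a fit of only the genotypes compared, DESeq2 1.42.0 and leaving out each library. Sequences and gene positions came from RefSeq's TAIR10.1, in which 32834 loci and all 32 members matched. Intervals on reads cover counting error only.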

Additional observations from a re-analysis of the deposited data

How the results depend on the processing

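Of 25 calls of a member in a comparison of 2 genotypes, 13 held under every alternative tried and 12 were lost under at least 1; no called value changed sign. Leaving out 1 library at a time gave counts of called members of 1 to 2 in pif345, 2 to 7 in pif145, 1 to 2 in pif135, 8 to 11 in the libraries labelled pif134 and 3 to 5 in pifq, each against WT. The low counts were 3 in pifq without WT C or pifq A, 2 in pif145 without WT A, WT C or pif145 C, and 1 in pif345 without WT A, WT C or pif345 B; the 7 in pif145 came without pif145 B, and the 2 in pif135, both lower, without pif135 A. It gave 0 to 1 for pifq against pif145 (1 without pifq B) and 0 to 7 against pif135 (7 without pif135 A; 0 without pif135 B, pif135 C or pifq A). The joint tests gave 1 to 2 members among WT and the single mutants (2 without pif4 B or pif4 C) and 8 to 14 among the triple mutants and pifq. The share of all loci called in each of these fits is not given here, so the counts do not set the members apart from other loci.

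The share of all loci called under the same setting stands in brackets after each count here. With a replicate block within each set of libraries, 3 members were called in pif1 (19.6%), 1 in pif5 (7.29%) and 2 in pif135 (21.2%) against WT, 1 (10.4%), 1 (2.11%) and 4 (6.49%) in pifq against pif345, pif145 and pif135, and 7 (23.5%) varied among WT and the single mutants. With 1 replicate block over all libraries the counts were 4 (9.65%) in pif345, 3 (22.1%) in pif135 and 17 (25.2%) in the libraries labelled pif134 against WT, 1 (4.95%), 1 (0.964%) and 2 (2.06%) in pifq against pif345, pif145 and pif135, and 4 (12.6%) in the joint test of WT and the single mutants. Across the sets the letters met the condition for pairing for WT with the libraries labelled pif134 and in none of the other 24 pairs. With only the genotypes compared in the fit, 4 members (5.19%) were called in pif345, 2 (5.49%) in pif145 and 3 (11%) in pif135 against WT and 0 (0.0169%) in pifq against pif135. The joint tests of that kind gave 4 (5.14%) among WT and the single mutants and 3 (4.83%) among the triple mutants and pifq. DESeq2 gave 3 (15.4%) for pif135 against WT, 1 (0.855%) and 4 (1.93%) for pifq against pif145 and pif135, and 4 (8.09%) in the joint test of WT and the single mutants. Without the filter, 1 member (2.81%) was called in pif1 against WT and 2 (0.468%) in pifq against pif135. With pif135 A and pif145 C both left out, chosen after seeing the data, 2 (4.88%) were called in pif145 and 4 (12%) in pif135 against WT, and 2 (1.22%) and 9 (3.55%) in pifq against pif145 and pif135. As these libraries were picked for raised indole members, the last counts do not set the members apart from other loci. The causes were not tested. Where a member had few reads, depth limits what could be detected.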
